A study of Mus musculus with 12 samples.

Results

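The genes described here are 10 genes of the Nrf2 antioxidant response in mouse liver, out of 25676 genes in the deposited table of TPM (a transcript level scaled for transcript length and for the library's total). They were chosen by symbol: *Nfe2l2*, *Keap1*, *Nqo1*, *Gclc*, *Gclm*, *Srxn1*, *Txnrd1*, *Hmox1*, *Slc7a11* and *Gsr*, and each symbol matched 1 row. Whole livers of 12 mice on a C57BL/6 background, 3-4 months old, were sequenced as bulk RNA, 1 library per liver. The knockout mice (KO, 3 males and 3 females) lost *Yap1* through Cre recombinase driven by *Foxa3*, and the wild-type mice (WT, 3 males and 3 females) are called healthy. The labels do not say whether the WT mice carried Cre or a floxed allele. *Foxa3* is active in the endoderm that gives rise to hepatocytes and bile duct cells. *Yap1* was not measured by cell type here.

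Nrf2, the product of *Nfe2l2*, is a transcription factor that switches on genes against oxidants and reactive chemicals. In unstressed cells the adaptor protein KEAP1 binds Nrf2 and hands it to a ubiquitin ligase for destruction. Oxidants and electrophiles modify KEAP1, Nrf2 then builds up, pairs with a small Maf protein and binds antioxidant response elements near its target genes. Its activity is therefore set largely at the protein level, which RNA does not measure. In liver the targets make and recycle glutathione, run the thioredoxin system, break down heme and detoxify quinones.

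The antioxidant response element has the core TGACNNNGC, which was searched for on both strands in the 250 bases before each RefSeq transcription start (GRCm38.p6). RefSeq promoters were at hand for 7 of the 10 genes, 9 starts in all, and *Gclc*, *Gsr* and *Hmox1* had none. The core was found before 3 starts, 1 each of *Nfe2l2*, *Gclm* and *Txnrd1*, and it occurs in 10.16% of all 32851 promoters of that length. The 7-base letters TGACTCA, which AP-1 factors bind, were searched for later in the same way and were found only before *Srxn1* among these genes, with 2 matches (4.463% of all promoters). Variants of the core were not searched for, so its absence before *Srxn1* holds for these exact letters only. The 110-base windows that hold these matches are printed below, 5′ to 3′ on the strand of the gene, with the matched letters in capitals, to show where such letters lie in these genes. The start of *Nqo1* had neither set of letters in this window, which says nothing about sequence farther away.
Nfe2l2 (chr2:75704804-75704913, minus strand): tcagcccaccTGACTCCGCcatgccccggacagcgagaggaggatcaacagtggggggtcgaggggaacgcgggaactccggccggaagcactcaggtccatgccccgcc
Gclm (chr3:122245373-122245482, plus strand): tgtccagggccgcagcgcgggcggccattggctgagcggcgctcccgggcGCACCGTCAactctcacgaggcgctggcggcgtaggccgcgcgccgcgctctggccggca
Txnrd1 (chr10:82859064-82859173, plus strand): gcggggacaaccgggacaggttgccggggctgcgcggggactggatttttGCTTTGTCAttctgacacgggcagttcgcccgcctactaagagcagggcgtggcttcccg
Srxn1 (chr2:152105399-152105508, plus strand): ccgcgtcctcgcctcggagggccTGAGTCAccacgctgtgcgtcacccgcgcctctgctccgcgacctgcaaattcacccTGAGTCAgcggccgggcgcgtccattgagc
In *Nfe2l2* the core reads along the gene's strand, 240 to 232 bases before the start. In *Gclm* (134 to 126 bases before the start) and *Txnrd1* (92 to 84 bases before the second of its 3 RefSeq starts) it reads on the other strand, so the capitals show its reverse complement. The pair in *Srxn1* lies 102 to 96 and 45 to 39 bases before the start, and both read TGACTCA on the other strand, so the capitals show its reverse complement, TGAGTCA.

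*Yap1* was between 22.99 and 34.9 TPM in the WT livers and between 0.99 and 3.11 TPM in the KO livers. Y-linked genes (4, summed) gave 52.5 to 101 TPM in libraries labelled male and no more than 0.122 TPM in those labelled female. Each library had 14321 to 15482 genes above 0 TPM. TPM are shares of a library, and the major urinary protein genes took 3.14 to 15.8% of TPM in WT and 0.160 to 0.836% in KO. The median gene was higher in KO by 0.35 on the log2(TPM + 1) scale, and the difference was -0.037 after median-of-ratios rescaling (dividing each library by its median ratio to the mean library). Differences between genotypes and sexes are therefore given as deposited and after rescaling, and levels in TPM are as deposited. The counts of markers that follow stand beside 50.1% of all tested genes higher and 4.82% lower as deposited, and 20.9% and 18.7% after rescaling. Of the markers for other cells, all 7 macrophage genes were higher in KO on both scales, with summed levels of 80.7 to 276 TPM in WT and 509 to 1035 TPM in KO. Bile duct markers summed to 37.5 to 67.8 TPM in WT and 264 to 729 TPM in KO, with 3 of 5 tested higher and 1 lower (2 and 1 after rescaling). Stellate markers summed to 55.2 to 160 TPM and 159 to 391 TPM, with 6 of 7 higher (4 higher and 1 lower after rescaling). Neutrophil markers summed to 0.374 to 20.8 TPM and 12.5 to 46.6 TPM, with 3 of 4 tested higher (1 after rescaling). Endothelial markers summed to 40.5 to 64.4 TPM and 26.1 to 104 TPM, with 1 of 5 higher and 1 lower (0 and 1 after rescaling). None of the 4 tested lymphocyte markers and none of the 3 tested erythroid markers passed on either scale. Hepatocyte markers summed to 80405 to 110348 TPM in WT and 59063 to 83786 TPM in KO, with 2 of 6 lower (3 after rescaling). No marker on these lists was at 0 in all 12 libraries, and the part of these cell types in the results below was not tested. In bulk tissue, fewer cells of a type and less RNA per cell cannot be told apart.

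The comparison of KO with WT asked how loss of *Yap1* changed the antioxidant genes. *Nqo1*, *Srxn1* and *Hmox1* rose most, each with all 6 KO livers above all 6 WT livers on both scales. *Txnrd1* and *Gsr* rose by about 0.5 after rescaling and by nearly 1.0 as deposited, on the log2 scale. *Nfe2l2* itself rose as deposited and fell just short of the threshold after rescaling. *Gclm* and *Keap1* rose only as deposited, *Gclc* passed on neither scale, and *Slc7a11* was too low to test. As deposited, 8 of the 9 tested genes were higher at a limma adjusted p under 0.05 and none was lower, where 54.9% of all tested genes passed, 50.1% higher and 4.82% lower. After rescaling 5 of 9 were higher and none lower, where 39.6% of all tested genes passed, 20.9% higher and 18.7% lower. The median log2 difference of the 9 genes was 0.94 as deposited and 0.48 after rescaling. Without a filter on low values 9 of all 10 genes passed as deposited, where 41.6% of the 17332 genes above 0 did. All 6 KO values lay above all 6 WT values for 7 of the 10 genes as deposited (28.7% of tested genes) and for 3 of the 10 after rescaling (10.8%).

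**Figure D1:**
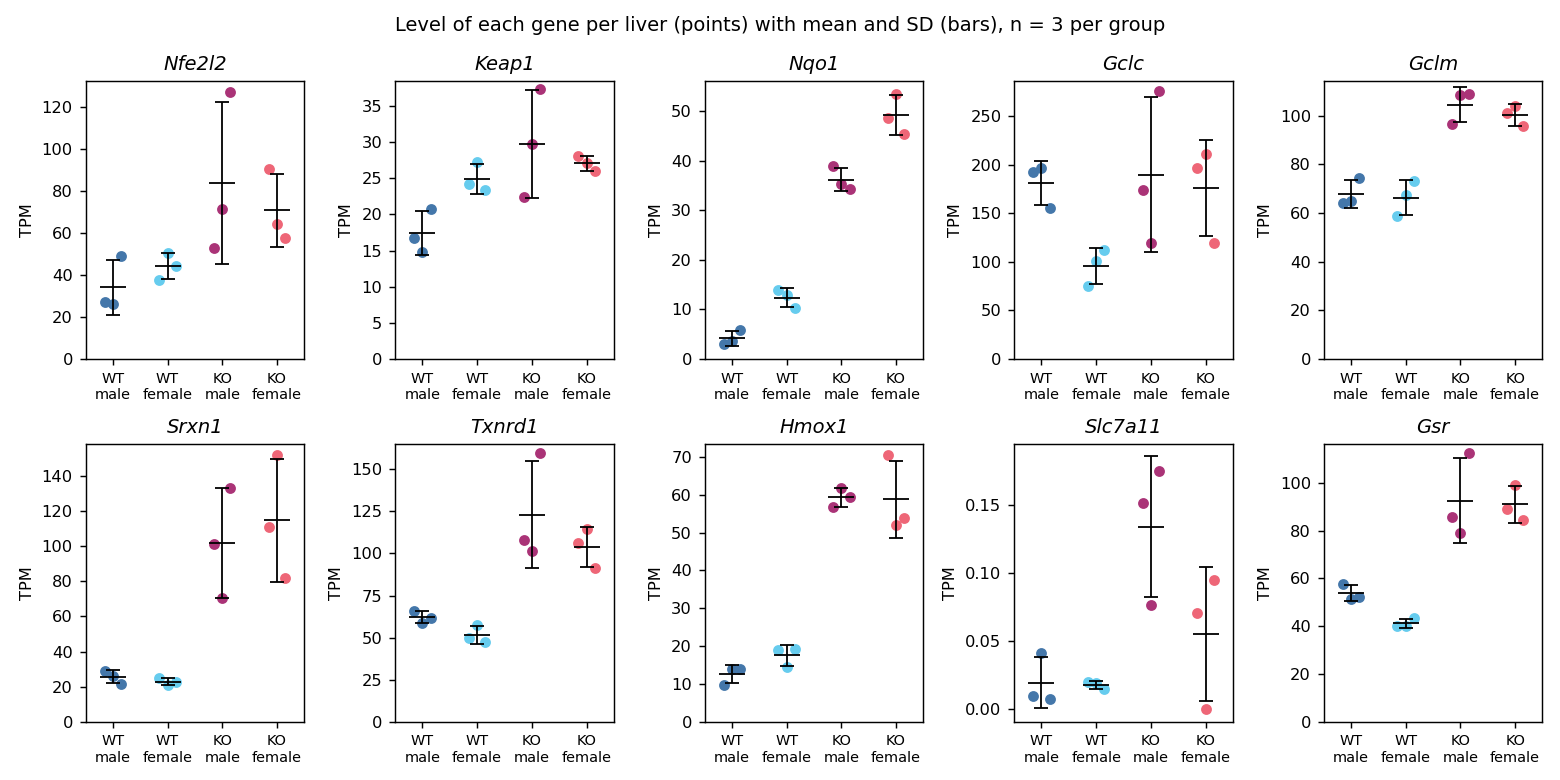
Level of each of the 10 genes in TPM (vertical axes, linear) in every liver, by genotype and sex, with the mean and SD of each group of 3. *Nqo1*, *Srxn1* and *Hmox1* show clear gaps between WT and KO, *Gclc* overlaps, and the *Slc7a11* axis ends below 0.2 TPM.

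*Nfe2l2* (ENSMUSG00000015839, chromosome 2, 75675513 to 75704641, minus strand, GRCm38) encodes Nrf2. Its levels were 27.04, 26.2 and 49.05 TPM in the WT males and 37.8, 50.4 and 44.5 TPM in the WT females. They were 52.6, 71.4 and 127 TPM in the KO males and 90.3, 64.0 and 57.7 TPM in the KO females. The KO livers were thus all higher than the WT livers, but the third KO male stood well above the others and the gap between the groups was narrow. The mean was 39.2 ± 10.7 TPM in WT and 77.1 ± 27.7 TPM in KO (SD, n = 6), a log2 difference of 0.94 (SE 0.23, limma adjusted p = 0.00347). After rescaling the difference was 0.48 (SE 0.18, limma adjusted p = 0.0514) and the groups overlapped.

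*Keap1* (ENSMUSG00000003308, chromosome 9, 21229730 to 21239361, minus strand) encodes the adaptor that holds Nrf2 down. It was at 16.7, 14.7 and 20.7 TPM in the WT males, 24.1, 27.2 and 23.3 TPM in the WT females, 22.4, 29.7 and 37.3 TPM in the KO males and 28.1, 27.1 and 26.0 TPM in the KO females. The WT males were the low group and the other 3 groups overlapped. The log2 difference of 0.42 (SE 0.15, limma adjusted p = 0.0285) was close to the median of all genes, and after rescaling it was -0.025 (limma adjusted p = 0.878), with all 3 KO females below all 3 WT females. Leaving out the first WT male, the second WT male, the second KO male or the third KO male took the limma adjusted p as deposited to between 0.0555 and 0.0635.

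*Nqo1* (ENSMUSG00000003849, chromosome 8, 107388225 to 107403206, minus strand) encodes a quinone reductase and is a widely used readout of Nrf2 activity. Its levels were 2.99, 3.57 and 5.91 TPM in the WT males, 13.99, 12.9 and 10.2 TPM in the WT females, 38.8, 35.2 and 34.4 TPM in the KO males and 48.5, 53.5 and 45.4 TPM in the KO females. The 4 groups formed 4 steps that did not overlap, WT males lowest and KO females highest, and the same order without overlap was seen after rescaling. The WT mean was 8.26 ± 4.76 TPM and the KO mean 42.6 ± 7.72 TPM (SD, n = 6), which is a log2 difference of 2.40 (SE 0.19, limma adjusted p = 3.44e-07) and of 1.98 after rescaling (SE 0.18, limma adjusted p = 2.34e-06). As deposited, 1.47% of the tested genes had a larger rise.

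*Srxn1* (ENSMUSG00000032802, chromosome 2, 152105516 to 152111376, plus strand) encodes sulfiredoxin, which restores over-oxidised peroxiredoxins. Levels ranged from 20.9 to 29.1 TPM over the 6 WT livers, with a median of 23.8. In KO they were 101, 70.5 and 133 TPM in the males and 111, 152 and 82.03 TPM in the females. The WT livers were close together, while the KO livers spread widely around a mean of 108 ± 30.7 TPM (SD, n = 6). The log2 difference was 2.07 (SE 0.17, limma adjusted p = 6.41e-07) and 1.62 after rescaling (SE 0.19, limma adjusted p = 1.85e-05).

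*Txnrd1* (ENSMUSG00000020250, chromosome 10, 82833951 to 82897712, plus strand) encodes the cytosolic thioredoxin reductase, a selenoprotein that keeps thioredoxin reduced. It was at 65.8, 58.6 and 61.9 TPM in the WT males, 50.0, 57.8 and 47.4 TPM in the WT females, 108, 102 and 160 TPM in the KO males and 106, 114 and 91.2 TPM in the KO females. All KO livers were above all WT livers, and the third KO male was the highest. The log2 difference was 0.97 (SE 0.12, limma adjusted p = 1.73e-05) and 0.51 after rescaling (SE 0.11, limma adjusted p = 0.00214), when the groups overlapped although the KO and WT livers of each sex did not.

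*Hmox1* (ENSMUSG00000005413, chromosome 8, 75093621 to 75100589, plus strand) encodes heme oxygenase 1, the inducible enzyme that opens the heme ring, and it is also strongly made by macrophages that clear red cells. Levels were 9.82, 13.9 and 14.05 TPM in the WT males, 19.04, 14.4 and 19.1 TPM in the WT females, 56.7, 61.9 and 59.4 TPM in the KO males and 70.5, 52.2 and 53.8 TPM in the KO females. The highest WT liver (19.1 TPM) was far below the lowest KO liver (52.2 TPM). The WT mean was 15.1 ± 3.54 TPM and the KO mean 59.1 ± 6.63 TPM (SD, n = 6), which is a log2 difference of 1.93 (SE 0.14, limma adjusted p = 1.37e-07) and of 1.48 after rescaling (SE 0.13, limma adjusted p = 1.70e-06). The macrophage markers, higher in 7 of 7 cases with the summed levels given above, moved with *Hmox1*, and their part in its rise was not tested.

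Glutathione is made in 2 steps, and the first is run by glutamate-cysteine ligase, whose catalytic subunit is *Gclc* and whose modifier subunit is *Gclm*. *Gclc* (ENSMUSG00000032350, chromosome 9, 77754535 to 77794485, plus strand) had the highest level of the 10 genes in both genotypes. It was at 192, 197 and 156 TPM in the WT males, 75.7, 101 and 112 TPM in the WT females, 174, 119 and 276 TPM in the KO males and 196, 212 and 119.8 TPM in the KO females. The WT females were the low group and the KO livers spread over the range of the WT males. The log2 difference was 0.41 (SE 0.23, limma adjusted p = 0.141), and after rescaling it was -0.049 (limma adjusted p = 0.892). Without the second KO male it was 0.59 with a limma adjusted p of 0.0227 as deposited.

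*Gclm* (ENSMUSG00000028124, chromosome 3, 122245557 to 122270732, plus strand) was at 58.6 to 74.5 TPM in the 6 WT livers, with a median of 66.2, and at 95.5 to 109 TPM in the 6 KO livers, with a median of 103. The groups stood apart as deposited, with a log2 difference of 0.60 (SE 0.09, limma adjusted p = 7.65e-05). After rescaling they overlapped and the difference was 0.14 (SE 0.09, limma adjusted p = 0.237). Its tight values in each genotype contrast with the wide spread of *Gclc*.

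*Gsr* (ENSMUSG00000031584, chromosome 8, 33652523 to 33698163, plus strand) encodes glutathione reductase, which returns oxidised glutathione to its reduced form. It was at 57.6, 51.5 and 52.3 TPM in the WT males, 40.02, 40.3 and 43.5 TPM in the WT females, 85.9, 79.1 and 113 TPM in the KO males and 89.2, 99.3 and 84.5 TPM in the KO females. All KO livers were above all WT livers. The log2 difference was 0.94 (SE 0.11, limma adjusted p = 1.32e-05) and 0.48 after rescaling (SE 0.12, limma adjusted p = 0.00745), when the males overlapped and the females did not.

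*Slc7a11* (ENSMUSG00000027737, chromosome 3, 49892526 to 50443614, minus strand) encodes the cystine carrier that brings in the building block of glutathione in many cell types. It was almost silent. The highest WT liver had 0.0414 TPM and the highest KO liver 0.175 TPM, and 1 KO female was listed at 0. The 3 KO males (0.151, 0.0761 and 0.175 TPM) were above the 3 WT males (0.00926, 0.0414 and 0.00777 TPM), and the females overlapped. Its mean was under the minimum of 0.5 TPM, so it was not tested. With no filter its difference was 0.10 on the log2(TPM + 1) scale (SE 0.03, limma adjusted p = 0.0235), a scale that compresses changes at such levels.

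Ranked by mean TPM, which is per transcript length, the WT livers had *Gclc* highest (139 ± 50.3 TPM, SD, n = 6), then *Gclm* (67.1 ± 5.94), *Txnrd1* (56.9 ± 6.99), *Gsr* (47.5 ± 7.30), *Nfe2l2*, *Srxn1* (24.2 ± 3.10), *Keap1* (21.1 ± 4.71), *Hmox1* and *Nqo1*. In KO, *Gclc* (183 ± 59.7 TPM) was followed by *Txnrd1* (114 ± 23.9), *Srxn1*, *Gclm* (102 ± 5.73), *Gsr* (91.8 ± 12.3), *Nfe2l2*, *Hmox1*, *Nqo1* and *Keap1* (28.4 ± 4.996). *Txnrd1*, *Srxn1* and *Gclm* lay within their spread of each other in KO. *Keap1* and *Srxn1*, which lay close together in WT, were far apart in KO. These means pool the sexes, and some neighbours change places between them. *Nfe2l2* (44.2 TPM) was above *Gsr* (41.3) and *Keap1* (24.9) above *Srxn1* (22.8) in WT females, the reverse of WT males. In KO females *Srxn1* (115 TPM) was above *Txnrd1* (104), and in KO males *Txnrd1* (123) and *Gclm* (105) were above *Srxn1* (102). The third KO male had the highest level of all 12 livers for 7 of the 10 genes as deposited and for 2 of the 10 after rescaling. That library also had the largest rescaling factor, 1.33, where the other KO libraries ran from 1.07 to 1.27 and the WT libraries from 0.716 to 0.938.

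**Figure D2:**
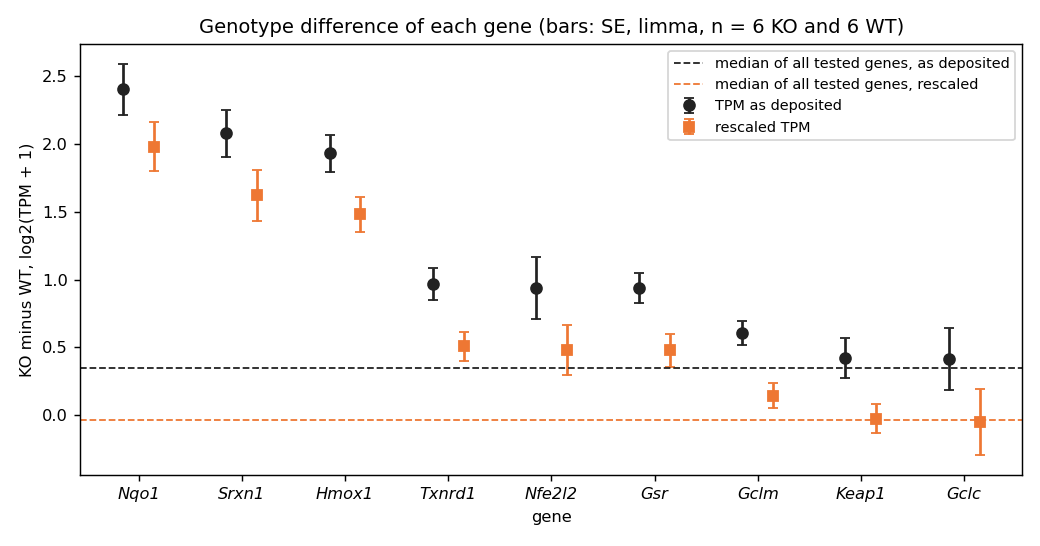
KO minus WT difference in log2(TPM + 1) of the 9 tested genes with its SE, as deposited (circles) and after rescaling (squares), beside the median of all tested genes on each scale (dashed lines). Rescaling lowers every gene by a similar amount, and *Nqo1*, *Srxn1* and *Hmox1* stay far above both lines while *Keap1* and *Gclc* lie on them after rescaling.

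In the authors' deposited table, which holds their own comparison of KO with WT, 4 of the 10 genes have an FDR p-value printed under 0.05, all higher in KO, where 24.2% of all 17332 genes with a value pass and 14.9% are higher. These are *Nqo1* (log2 fold change 2.59), *Hmox1* (1.65), *Srxn1* (1.55) and *Nfe2l2* (0.75, printed FDR 0.01). In the authors' deposited table *Txnrd1* has a log2 fold change of 0.37 (printed FDR 0.22) and *Gsr* of 0.31 (0.17). *Gclm* has 0.089 and *Keap1* 0.090 in the authors' deposited table, and *Gclc* has -0.31. *Slc7a11* has 1.44 there (printed FDR 0.21), from the very low levels given above, in the authors' deposited table. *Txnrd1* and *Gsr* are thus the genes that passed on both scales here and not in the authors' deposited table.

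The genotype difference was then taken within each sex. In males 8 of 9 genes were higher as deposited, where 46.1% of all tested genes passed and 43.3% were higher, and 3 of 9 after rescaling, where 24.1% passed and 13.9% were higher. In females 7 of 9 were higher as deposited (33.8% of all tested genes passed and 29.1% were higher) and 5 of 9 after rescaling (26.1% and 15.2%). *Nqo1*, *Srxn1* and *Hmox1* passed in both sexes on both scales. *Nqo1* rose by 2.89 in males (SE 0.19, limma adjusted p = 2.83e-07) and by 1.91 in females (SE 0.19, limma adjusted p = 1.35e-05), and by 2.38 and 1.58 after rescaling. *Hmox1* rose by 2.17 in males (SE 0.17) and 1.69 in females (SE 0.17), with limma adjusted p-values of 1.60e-06 and 1.65e-05, and by 1.61 and 1.35 after rescaling. *Srxn1* rose by 1.91 in males and 2.24 in females (SE 0.24 in both), and by 1.34 and 1.90 after rescaling. *Nfe2l2* passed in males as deposited (1.23, limma adjusted p = 0.00676) and not in females (0.65, limma adjusted p = 0.128), and after rescaling in neither sex (0.67 and 0.30, limma adjusted p = 0.0804 and 0.425). *Keap1* likewise passed in males as deposited (0.73, limma adjusted p = 0.00651) and not in females (0.12, limma adjusted p = 0.658), and after rescaling in neither sex (0.17 and -0.22, limma adjusted p = 0.403 and 0.266). *Gsr* and *Txnrd1* passed after rescaling in females (0.77 and 0.64, limma adjusted p = 0.00124 and 0.00688) and not in males (0.19 and 0.38, limma adjusted p = 0.358 and 0.0881).

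The difference between the sexes in the genotype effect was tested as an interaction, male effect minus female effect. None of the 9 genes passed on either scale with limma, where 0.912% of all tested genes did as deposited and 0.839% after rescaling. At an unadjusted p under 0.05 there were 2 of 9 as deposited, where 8.85% of all tested genes were, and 3 of 9 after rescaling, where 7.58% were. The first were *Nqo1* and *Keap1*, and the second *Nqo1*, *Gclc* and *Gsr*. The *Nqo1* interaction was 0.97 (SE 0.27, limma adjusted p = 0.217) and 0.80 after rescaling (limma adjusted p = 0.494), and without the third WT male it was 1.20 as deposited with a limma adjusted p of 0.018. For *Keap1* the interaction was 0.61 (SE 0.26, unadjusted p = 0.0338, limma adjusted p = 0.505) and 0.39 after rescaling (limma adjusted p = 0.717). For *Gclc* it was -0.85 (SE 0.41, limma adjusted p = 0.578) and -1.08 after rescaling (limma adjusted p = 0.51), with *Gclc* at 0.84 in females (limma adjusted p = 0.0383) and -0.013 in males (limma adjusted p = 0.973) as deposited. The female *Gclc* difference did not pass after rescaling (0.49, limma adjusted p = 0.219). As deposited it kept its direction but missed the threshold on leaving out 1 of 5 livers. It was 0.68 without the first WT female, 0.69 without the second KO female, 0.74 without the first KO female, 0.88 without the second WT female and 0.84 without the first KO male (limma adjusted p = 0.0521 to 0.143). For *Gsr* the interaction was -0.36 (SE 0.20, limma adjusted p = 0.627) and -0.59 after rescaling (SE 0.19, unadjusted p = 0.00981, limma adjusted p = 0.406). With all 3 livers per group kept, no difference between the sexes in the genotype effect thus passed for these genes. This does not show that the sexes respond alike.

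**Figure D3:**
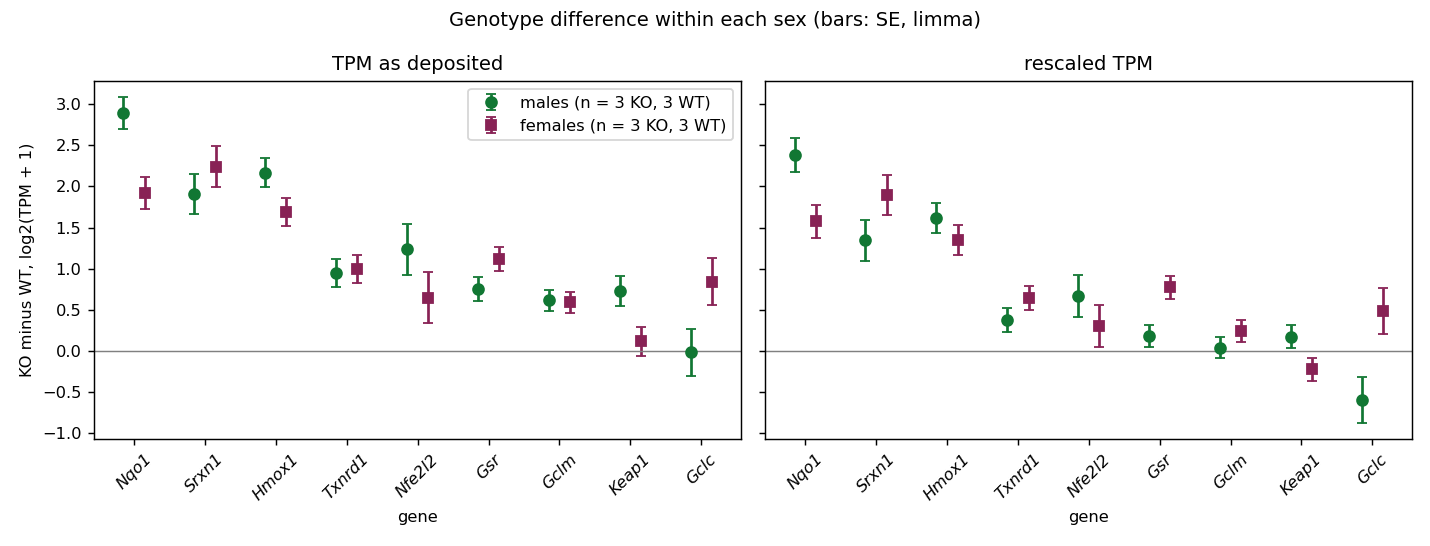
KO minus WT difference in log2(TPM + 1) with its SE for the 9 tested genes in males (circles) and females (squares), as deposited and after rescaling. *Nqo1* was 2.89 in males and 1.91 in females as deposited, and *Gclc* was -0.013 and 0.84.

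Between WT males and WT females, 1 of 9 genes passed as deposited, where 5.74% of all tested genes did, and 3 of 9 after rescaling (4.37%). *Nqo1* was lower in WT males, at 4.16 ± 1.55 TPM against 12.4 ± 1.92 TPM in WT females (SD, n = 3), a log2 difference of -1.40 as deposited (SE 0.19, limma adjusted p = 0.000776) and -1.23 after rescaling (limma adjusted p = 0.00406). In KO it was also lower in every male, at 36.1 ± 2.37 TPM against 49.1 ± 4.08 TPM, but the log2 difference of -0.43 did not pass (SE 0.19, limma adjusted p = 0.859), nor did -0.43 after rescaling (limma adjusted p = 0.841). *Gclc* ran the other way, at 182 ± 22.5 TPM in WT males and 96.2 ± 18.7 TPM in WT females (SD, n = 3), and passed after rescaling (1.15, limma adjusted p = 0.0386) but not as deposited (0.92, limma adjusted p = 0.0802). *Gsr* was at 53.8 ± 3.30 TPM in WT males and 41.3 ± 1.94 TPM in WT females and likewise passed after rescaling (0.60, limma adjusted p = 0.0278) but not as deposited (0.38, limma adjusted p = 0.134). Between KO males and KO females none of the 9 genes passed with limma on either scale, where 0.0814% of all tested genes did on each, and 1 of 9, *Nqo1*, had an unadjusted p under 0.05 as deposited and none after rescaling, where 5.33% and 5.59% of all tested genes did.

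The ratio of a pair of genes within 1 library does not change when the library is rescaled. Such ratios are therefore described for 4 pairs, with no test, since the pairs were chosen after the values were seen. The WT level of *Nqo1* was 0.204 ± 0.101 of that of *Nfe2l2*, and the KO level 0.610 ± 0.216 of it (SD, n = 6), a log2 difference of 1.63. This restates the larger rise of *Nqo1* in a form free of the scaling. The ratio was 0.111 to 0.136 in WT males, 0.230 to 0.370 in WT females, 0.271 to 0.738 in KO males and 0.537 to 0.836 in KO females, so the KO livers of each sex lay above the WT livers of that sex. *Nfe2l2* was 1.85 ± 0.288 times the *Keap1* level in WT and 2.66 ± 0.510 times in KO (SD, n = 6), a log2 difference of 0.52. The lowest KO ratio, 2.22, was below the highest WT ratio, 2.37.

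All 4 ratios overlapped between the genotypes when the sexes were pooled. *Gclc* was 2.07 ± 0.773 times *Gclm* in WT and 1.78 ± 0.530 times in KO (SD, n = 6). In WT the ratio was 2.09 to 3.03 in males and 1.29 to 1.54 in females, which did not overlap, and in KO it was 1.10 to 2.54 in males and 1.25 to 2.03 in females, which did. In WT *Gsr* was 0.836 ± 0.0787 of *Txnrd1*, and in KO it was 0.819 ± 0.0762 of it (SD, n = 6). Both enzymes are reductases that draw on NADPH, for glutathione and for thioredoxin. The ratio was 0.846 to 0.880 in WT males, 0.697 to 0.918 in WT females, 0.707 to 0.795 in KO males and 0.838 to 0.926 in KO females. The KO males thus lay below the WT males and the KO females.

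**Figure D4:**
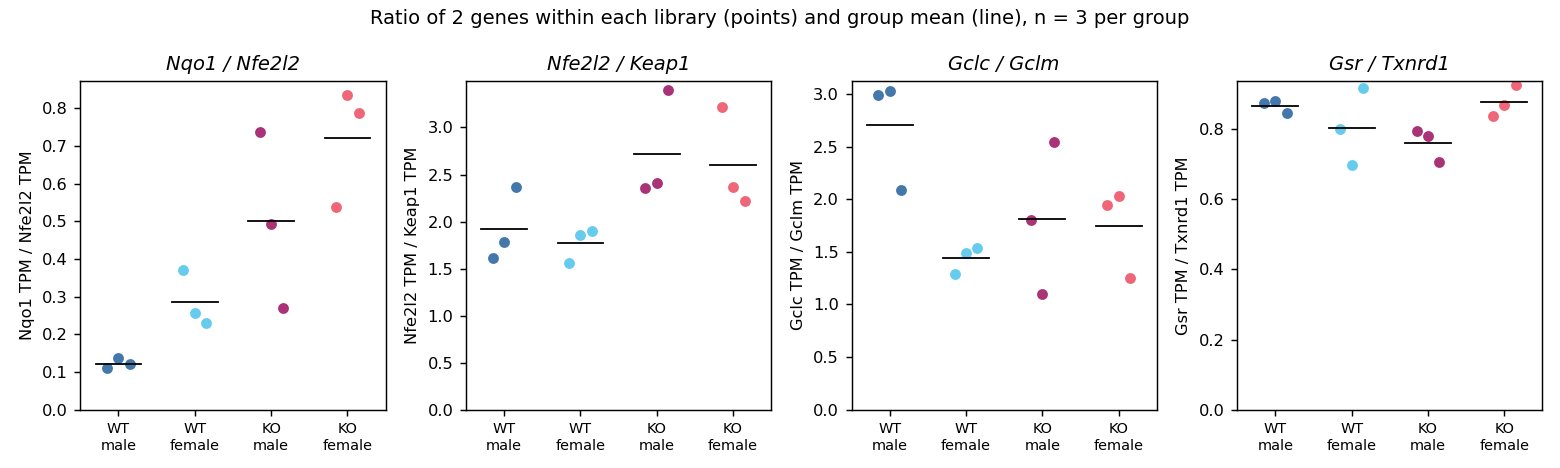
Ratio of the TPM of a pair of genes within each library (vertical axes, linear from 0), by group, with the group mean as a line. *Nqo1* to *Nfe2l2* and *Nfe2l2* to *Keap1* are higher in KO, *Gclc* to *Gclm* differs between WT males and WT females, and *Gsr* to *Txnrd1* lies between 0.697 and 0.926, with the KO males below the WT males and the KO females.

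For the 3 genes that varied most over the 12 livers (*Nqo1*, *Srxn1* and *Hmox1*), the genes with the nearest profile were found by the root-mean-square difference of log2(TPM + 1) over the 12 samples after centring each gene on its mean. Nearest to *Nqo1* were *Plpp2* (0.29), *Gpat3* (0.29) and *Emp2* (0.30). *Plpp2* was at 19.5 ± 8.15 TPM in WT and 99.7 ± 10.2 TPM in KO (SD, n = 6). Nearest to *Srxn1* were *Hr* (0.20), *Sh3pxd2b* (0.21) and *Ets2* (0.22), and nearest to *Hmox1* were *Nck2* (0.16), *Tpm1* (0.18) and *Pea15a* (0.20). *Hr* (mean 0.152 TPM in WT and 3.86 TPM in KO) and *Sh3pxd2b* (0.252 and 4.90 TPM) were very low in WT. At such levels the log2(TPM + 1) scale compresses changes, so their nearness to *Srxn1* depends on that scale. The 3 lists held no gene in common and no gene of the pathway lists below.

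The other genes of the pathway were read from lists by role, beside the 50.1% higher and 4.82% lower of all tested genes as deposited and the 20.9% and 18.7% after rescaling. No difference between lists was tested. Among 11 tested genes for detoxification targets of Nrf2, 9 were higher as deposited and 8 after rescaling, none was lower, and the median log2 difference was 1.54 and 1.07. This list does not hold all targets of Nrf2. Genes of glutathione, thioredoxin and heme handling stand on lists described below, each with lower genes after rescaling. *Ugdh*, which makes UDP-glucuronate, rose from 97.8 ± 14.5 to 375 ± 62.2 TPM (SD, n = 6; log2 difference 1.92, and 1.46 after rescaling, limma adjusted p = 4.99e-06). *Gsta4*, a glutathione transferase for lipid aldehydes, rose by 1.68 (1.22 after rescaling), and *Cbr3*, a carbonyl reductase, by 1.65 (1.40). *Gstp1* (0.10) and *Cyp2a5* (0.21) did not pass on either scale. Values of glutathione transferases and of *Cyp2a5*, *Gsta4* included, can be uncertain where similar family members share reads.

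Of 6 enzymes for NADPH supply, 4 were higher as deposited, and 2 were higher and 2 lower after rescaling. *Pgd*, of the pentose phosphate pathway, rose from 34.0 ± 3.53 to 146 ± 28.0 TPM (SD, n = 6; 2.06, and 1.60 after rescaling, limma adjusted p = 4.25e-07). *G6pdx*, its entry enzyme, rose by 1.13 (0.76 after rescaling, limma adjusted p = 0.00251). *Tkt* rose by 0.69 as deposited and was at 0.23 after rescaling (limma adjusted p = 0.128). Of 11 tested glutathione enzymes 8 were higher as deposited, and 4 were higher and 2 lower after rescaling, with medians of 0.71 and 0.35. The 3 largest rises were in glutathione peroxidases. *Gpx3*, the secreted form, rose from 4.23 ± 1.51 to 81.96 ± 25.1 TPM (SD, n = 6; 3.98, and 3.57 after rescaling, limma adjusted p = 2.16e-08). *Gpx2*, an epithelial form, rose from 0.0699 ± 0.0852 to 9.23 ± 4.17 TPM (3.17 and 2.95), and *Gpx4*, which reduces lipid peroxides, from 300.1 ± 51.6 to 864 ± 107 TPM (1.53 and 1.07). *Gpx1*, the most abundant peroxidase of the list, did not pass, at 2949 ± 728 TPM in WT and 3134 ± 606 TPM in KO (0.10, limma adjusted p = 0.574, and -0.36 after rescaling, limma adjusted p = 0.0728). The bile duct and macrophage markers moved with them as given above, and their part was not tested.

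Of 11 thioredoxin and peroxiredoxin genes, 1 was higher as deposited, *Prdx2* (0.39, and -0.072 after rescaling), and after rescaling none was higher and 5 were lower, with a median of -0.50. Of 6 genes of heme and iron handling, 3 were higher as deposited, and 1 was higher and 3 lower after rescaling. The ferritin genes *Fth1* and *Ftl1* rose by 0.81 and 0.72 as deposited, and after rescaling they were at 0.35 (limma adjusted p = 0.0492) and 0.25 (limma adjusted p = 0.209). *Hmox2*, the constitutive heme oxygenase, rose by 0.53 as deposited and was at 0.080 after rescaling (limma adjusted p = 0.659), where *Hmox1* was at 1.48. Of the 4 antioxidant enzymes outside Nrf2, 2 were lower as deposited and 3 after rescaling. *Cat*, catalase, fell from 1696 ± 305 to 1156 ± 123 TPM (SD, n = 6; -0.54, and -1.004 after rescaling, limma adjusted p = 0.000101), and *Sod2*, the mitochondrial superoxide dismutase, was at -0.31 and -0.76 (limma adjusted p = 0.0131 and 6.12e-05).

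Of 11 tested genes that control Nrf2, 4 were higher and 1 lower as deposited, and 2 were higher and 3 lower after rescaling. *Sqstm1*, the autophagy receptor p62, which binds KEAP1, rose from 230 ± 38.1 to 559 ± 48.2 TPM (SD, n = 6; 1.29, and 0.82 after rescaling, limma adjusted p = 0.00066). *Mafk*, a small Maf partner, rose by 0.92 (0.49 after rescaling, limma adjusted p = 0.0422). *Bach2*, a repressor of the same elements, fell from 2.25 ± 0.961 to 0.826 ± 0.324 TPM (-0.81 and -1.07, limma adjusted p = 0.00106 and 0.000253), with all KO livers below all WT livers as deposited.

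**Figure D5:**
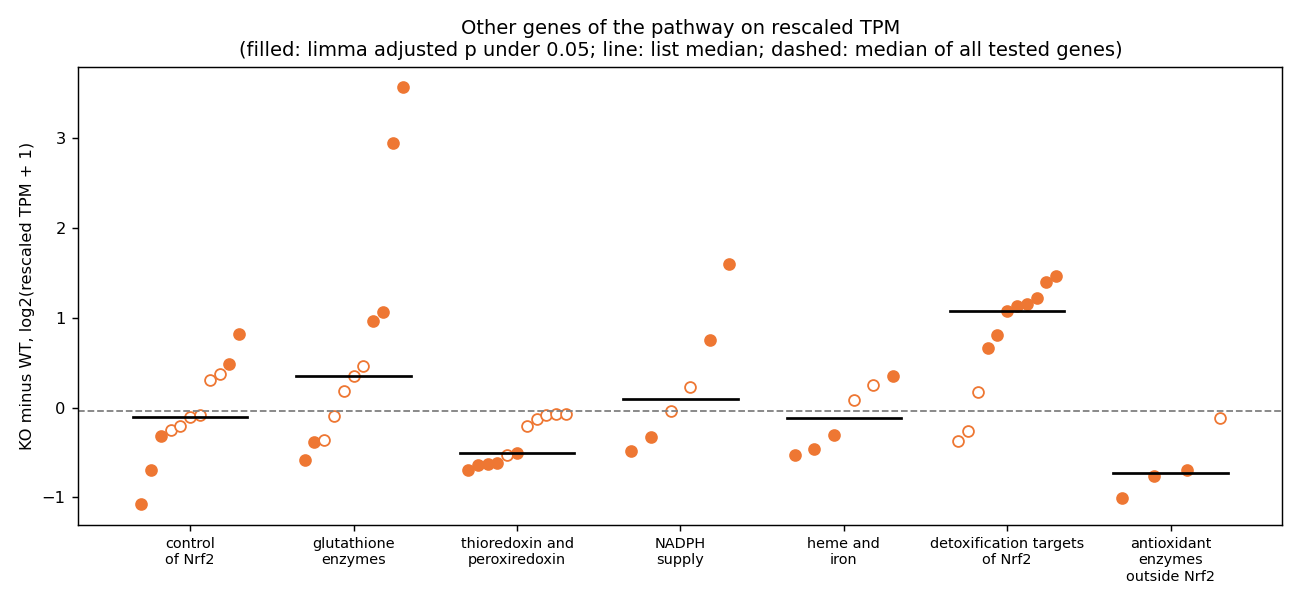
KO minus WT difference in log2(rescaled TPM + 1) of each tested gene on the 7 lists of other pathway genes (points, filled where the limma adjusted p is under 0.05), with the list median (line) and the median of all tested genes (dashed). The detoxification list lies highest, with a median of 1.07, and the list of antioxidant enzymes outside Nrf2 lies lowest.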

How the data were processed

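Per the file headers, the deposited table holds TPM made by the authors, with 1 column for each of the 12 samples and 0 unmatched columns, and each column sums to 1000000. The submitters' processing notes name GRCm38 and edgeR without saying for which step, and the aligner, the counter and the use of strand are not given in the sources used here, so overlapping antisense transcripts cannot be told apart. The read depth is unknown from TPM, so no counting error is given. The table also holds the authors' comparison of KO with WT, with an FDR p-value rounded to 2 decimals.

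TPM were transformed to log2(TPM + 1), and 12278 genes with a mean of at least 0.5 TPM were tested with limma 3.58.1 (R 4.3.3; lmFit, eBayes with trend), two-sided, with Benjamini-Hochberg adjustment over the tested genes and a threshold of 0.05. The genotype comparison had sex as a covariate, and the others were contrasts in 1 model of the 4 group means. The fit was tested on simulated data, which did not hold the shift in scale between KO and WT libraries seen here. Rescaling used 12819 genes above 0 in every sample. Ratios within a library are described without a test. Positions come from GENCODE mouse release 21 by identifier, promoters from RefSeq (GRCm38.p6). Alternatives changed the scaling, pseudocount, filter and variance trend, and left out each sample. Another added a covariate for the samples with the lowest LM numbers in their labels (the third WT female and first KO female). The labels do not say what the LM numbers stand for.

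Replicate numbers follow the order of deposition and pair no samples. Within groups the 12 pairs of libraries correlated at 0.967 to 0.990 across tested genes and 0 were identical. The labels do not say how the samples of a group relate. Each has its own LM number, and the library number of the second WT male is from a separate series. The p-values measure the spread between these samples. The genes and lists were chosen with earlier results of these data known. Named are all 10 genes, *Yap1*, up to 3 genes per list with the largest change past the threshold, and the 3 nearest profiles of the 3 most variable genes. *Gpx1*, *Gstp1* and *Cyp2a5* were named after their values were seen.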

Additional observations from a re-analysis of the deposited data

Results flagged for a closer look

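The WT and KO values of the 10 genes gave 20 groups of 6 livers, in which the highest and lowest liver were compared with the range of the group, and chance flags about 1 in 20 groups. In *Txnrd1*, the third KO male stood apart from the other KO livers at 160 TPM, with a gap of 0.661 of the range. The flags were set on TPM as deposited only. After rescaling that liver was at 120 TPM, with the second KO female next at 103 TPM and the lowest KO liver at 78.8 TPM. In *Slc7a11*, the second WT male stood apart from the other WT livers at 0.0414 TPM, with a gap of 0.645 of the range. The label of that WT male carries a library number from a separate series, of which it is the only member, so library series and animal cannot be told apart. Without the third KO male the *Txnrd1* difference as deposited was 0.88.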

How the results depend on the processing

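*Nqo1*, *Srxn1*, *Hmox1*, *Txnrd1* and *Gsr* kept their direction and stayed past the threshold in the genotype comparison under all 20 alternatives, with ranges of 1.98 to 2.57 for *Nqo1*, 1.62 to 2.20 for *Srxn1*, 1.48 to 1.99 for *Hmox1*, 0.51 to 1.03 for *Txnrd1* and 0.48 to 1.00 for *Gsr*. Rescaling moved the count of the 10 genes called from 8 to 5 in the genotype comparison, from 8 to 3 in males and from 1 to 3 in the sex comparison in WT, and the count of all genes in males from 5663 to 2959. Rescaling turned the sign of *Keap1* (-0.025, and -0.22 in females), *Gclc* (-0.049) and the *Gclm* interaction (-0.20).

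Leaving out 1 library gave 75 to 176 genes for the interaction, 291 to 1698 for sex in WT and 6 to 10 for sex in KO. Leaving out any 1 of the 6 WT libraries moved the count for sex in WT (705) by more than 1.5 times, and it was lowest without the second WT male and highest without the third. The counts changed by more than 1.5 times for sex in KO without the second KO male (6 against 10) and for the interaction without the third WT male (176 against 112). Of the 10 genes, it gave 7 to 8 called for genotype, 0 to 1 for the interaction and 1 to 2 for sex in WT (2 without the third WT male or the third KO male). The *Gclc* difference in males ranged from -0.32 to 0.28, the *Gclm* interaction from -0.050 to 0.11, the *Txnrd1* interaction from -0.25 to 0.078 and the *Gsr* to *Txnrd1* ratio from -0.079 to 0.020. With a covariate for the samples with the lowest LM numbers, sex in WT gave 409 genes. Without both of those samples, an alternative chosen after seeing the data, there were 465, the *Gclm* and *Txnrd1* interactions were -0.043 and 0.034 and the *Gsr* to *Txnrd1* ratio was 0.037. The *Keap1* genotype difference also missed the threshold without those samples (limma adjusted p = 0.0525) and without the 20 most abundant genes (0.0583), and the female *Gclc* difference did so in both cases (0.116 and 0.0665) and with no filter (0.0662). The cause of these changes was not tested. No paired analysis was possible because replicate numbers come from the order of deposition.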
